A study of Mus musculus with 6 samples.

Results

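Interferon response genes were followed in regulatory T cells (Tregs) of young female NOD mice, a strain prone to autoimmune diabetes. A list of 36 genes was read by gene symbol, and 33 of them had a probe set annotated to that symbol alone, out of 18193 genes measured in this way. Where a gene had several such probe sets, the brightest over all arrays stood for it. All 6 mice carried the BDC2.5 T cell receptor transgene, which recognises a pancreatic islet antigen, and the Foxp3GFP reporter of Foxp3-expressing cells. The 3 treated mice were RAG1o/o and cannot rearrange antigen receptor genes of their own. They received 37.5 µg of the anti-CD3 antibody KT3 intravenously on each of 5 days from an age of 17 days, and their spleens were taken at 28 or 29 days, labelled as 11 or 12 days after treatment. The 3 untreated mice were RAG1+/o, with 1 working RAG1 copy, and 28 or 29 days old. Antibody and RAG1 genotype were therefore joined, and a difference between the groups, called treated and untreated below, cannot be told apart into these parts. Each array held the spleen CD4+ GFP+ cells of 1 mouse, sorted as negative for B220, CD8a and CD11b/c. Of the listed genes, Isg15 and Gbp4 were covered only by probe sets shared with another gene and Ifi44 by none under its symbol.

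Interferons are secreted alarm signals of infection. Type I interferons act through a receptor whose kinases switch on transcription factors that bind the interferon-stimulated response element in promoters of antiviral genes. Interferon-gamma, which T cells and NK cells release, acts mainly through gamma-activated sites and induces IRF1, the guanylate-binding and immunity-related GTPases and the peptide-loading machinery. In T cells a low tonic interferon signal keeps many of these genes measurable without infection.

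The promoters of the genes on which the account turns show these elements directly. Their sequences, from the RefSeq table on GRCm38.p6, lie at chr19:34640769-34640849 for Ifit1, chr19:34583359-34583439 for Ifit3, chr3:142620583-142620633 for Gbp2, chr3:142559974-142560024 for Gbp3, chr11:58199486-58199555 for Igtp and chr11:53769894-53769954 for Irf1, all on the plus strand, and at chr5:120907526-120907635 on the minus strand for Oas1a. Each is printed on the gene's own strand and ends before an annotated transcription start site, from which positions are counted. The annotated Ifit3, Oas1a and Gbp3 genes extend upstream of that site, so the Ifit3 stretch and part of the other stretches named here lie within the gene. Capitals mark matches to the response element core, which is GAAA, any 2 bases and GAAA on either strand, or to the gamma-activated site, TTCNNNGAA, and overlapping matches merge into 1 run.

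Ifit1: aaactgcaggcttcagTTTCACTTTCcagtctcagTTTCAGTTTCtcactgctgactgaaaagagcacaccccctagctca
Ifit3: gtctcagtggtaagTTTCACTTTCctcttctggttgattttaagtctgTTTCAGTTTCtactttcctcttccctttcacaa
Oas1a: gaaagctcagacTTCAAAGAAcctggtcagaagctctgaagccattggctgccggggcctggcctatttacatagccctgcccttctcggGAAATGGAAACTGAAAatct
Gbp2: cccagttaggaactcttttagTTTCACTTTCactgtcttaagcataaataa
Gbp3: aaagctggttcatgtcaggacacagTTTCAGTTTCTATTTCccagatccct
Igtp: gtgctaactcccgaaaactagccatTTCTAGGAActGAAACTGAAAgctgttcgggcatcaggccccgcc
Irf1: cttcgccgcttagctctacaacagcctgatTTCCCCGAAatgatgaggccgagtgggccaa

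Ifit1 and Ifit3 each held 2 response element cores with the same letters in the same order, the first starting at base −104 of Ifit1 and −156 of Ifit3, counted back from the start site. Irf1 held a gamma-activated site and no response element core, Oas1a and Igtp held both kinds, and Gbp2 and Gbp3 held response element cores alone. A promoter window of 250 bases before to 50 bases after the start was given for 27 of the 36 genes. The core was found in 15 of these 27 (55.6%), against 3.99% of all 27025 genes with a window, and the gamma-activated site in 7 (25.9%), against 9.55%. A match describes letters and does not show that a factor binds there.

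Array medians lay between 85.3 and 92.4 intensity units. Sorted cells had the transcripts of Tregs, with Foxp3 at 11.43, 11.46 and 12.44 in treated and 10.75, 9.95 and 11.07 in untreated mice on the log2 scale, the scale of all levels and differences below. Foxp3 itself differed by +1.19 (treated minus untreated, interval 0.30 to 2.08) without overlap of the groups. Cd3e differed by +0.31, also without overlap, and Cd4 and Il2ra by +0.37 and −0.05 with overlap. Transcripts of other cells were present as well. The mean of the 9 measured of 10 listed B cell markers, all 9 of them lower in treated mice, was 6.73, 6.85 and 6.74 in treated mice, in the order of replicates 1 to 3 used throughout, against 9.31, 9.17 and 7.31 in untreated mice. Of these, Ms4a1 measured 6.50, 6.66 and 6.30 in treated and 12.95, 12.93 and 8.97 in untreated mice. The mean of all 12 listed myeloid markers, 11 of them higher in treated mice, was 9.93, 8.88 and 9.72 in treated and 9.32, 9.40 and 7.22 in untreated mice. The mean of 9 cell division genes, 8 of them lower in treated mice, was 9.91, 9.01 and 9.69 in treated and 10.27, 10.11 and 10.11 in untreated mice. Treated replicate 2, the low array of that list, also had the smallest of limma's array weights, 0.242, the others lying between 0.731 and 2.58. Untreated replicate 3 lay apart from the other untreated arrays in the B cell and myeloid lists. Treated replicate 2 and untreated replicate 3 had the lowest myeloid means of their groups. Rsad2, Oasl2 and Ifih1 were also lowest on these arrays, as was Ifit3, by a small margin in untreated mice. Untreated replicate 3, lowest of its group in both lists, was the highest untreated array for 20 of the measured interferon genes (60.6%). The part of these markers in the interferon results below was not tested.

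The comparison asked how interferon response transcripts of Tregs remaining after anti-CD3 treatment differed from those of untreated BDC2.5 mice. All 3 IFIT genes and 8 of 10 other effector genes had lower means in treated Tregs, and Ifit3, Usp18 and Rtp4 had the smallest p-values. Of these effectors, Xaf1, Parp14 and Mx2 differed by only −0.00, −0.07 and −0.09. The sign turned under an alternative below for Ifit1, Rsad2, Xaf1 and Parp14, and for the 2 positive effectors, Ifi35 and Isg20. Among genes that respond mainly to interferon-gamma, Irf1 and Tap1 had higher means and 4 of the 6 GTPases lower ones. None of these differences passed the test over all genes. In bulk samples, fewer cells of a type and less RNA per cell cannot be told apart. Of the 33 measured genes, 21 had a negative difference (treated minus untreated) and 12 a positive one, with a median of −0.07. Over all genes 41.5% were negative and the median was +0.05. Under the alternatives given at the end, the split of the 33 genes ran from 17 negative and 16 positive to 23 and 10. The near-even split came with age as a covariate, the mean of the probe sets or treated replicate 2 left out. Median centring gave 23 and 10. Without treated replicate 2, 49.6% of all genes were negative, and with median centring 45.6%.

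By limma, 0 of the 33 genes were called higher and 0 lower at an adjusted p of 0.05, and the same held for 0% of the 18193 genes in each direction. At an unadjusted p under 0.05, 3 of the 33 (9.09%) were lower, against 3.17% of all genes, and 0 were higher, against 1.82%. The groups did not overlap in 3 genes with treated values below (5.24% of all genes) and in 1 gene with treated values above (5.61% of all genes). The count of 3 at an unadjusted p under 0.05 moved with single arrays. Without untreated replicate 1 or untreated replicate 3 it was 1, Ifit3, and without untreated replicate 2 it was 2, Ifit3 and Ifit1. Without treated replicate 2 it was 4, with Bst2 added, and without treated replicate 3 it was 5, which were Ifit3, Oas1a, Gbp3, Usp18 and Trim30a. Without treated replicate 1 the 3 were joined by 1 higher gene, Irf1. The count moved over the whole table too. Of all 18193 genes 576 were lower at this cut-off with all arrays, and 367, 276 and 876 without untreated replicates 1, 2 and 3. Without treated replicates 1, 2 and 3 they were 663, 441 and 523. Without treated replicate 1, 543 of all genes were higher, against 331 with all arrays. The list was chosen with earlier results of these data known. The 95% interval of the difference lay within −1 to 1, less than a 2-fold change either way, for 21 of the 33 genes.

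**Figure D1:**
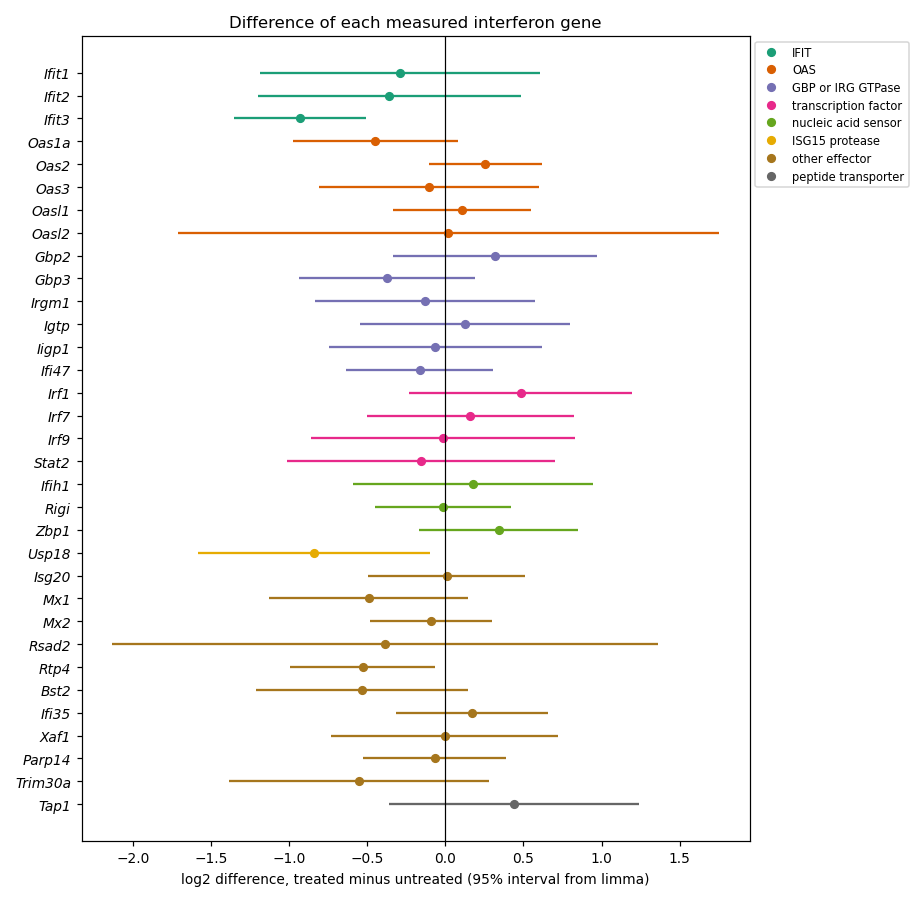
Difference between treated and untreated Tregs (log2, treated minus untreated, x axis) for each of the 33 measured interferon genes (y axis), coloured by role. Points are differences of group means (n = 3 mice each) and lines the 95% intervals from limma. The intervals of Ifit3, Usp18 and Rtp4 lie below 0, and the others include 0.

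IFIT proteins bind viral RNA, as IFIT1 does with foreign caps, and block its translation. All 3 genes had lower means in treated Tregs, with a median difference of −0.36. Ifit3 measured 8.44, 8.11 and 8.39 in treated and 9.14, 9.46 and 9.12 in untreated mice. Every treated value of Ifit3 lay below every untreated one, and the spread within each group was small (8.31 ± 0.17 against 9.24 ± 0.19, SD, n = 3 each). The difference was −0.93 (interval −1.35 to −0.51), a 1.91-fold lower level, with a limma p of 0.00119 and an adjusted p of 0.863. Ifit2 measured 8.39, 7.67 and 8.87 in treated and 8.64, 8.23 and 9.13 in untreated mice, and Ifit1 7.60, 7.09 and 7.70 in treated and 8.39, 6.93 and 7.95 in untreated mice. Both sets of values overlapped, with differences of −0.36 (interval −1.20 to 0.48) and −0.29 (interval −1.19 to 0.61). Without treated replicate 2 the difference of Ifit2 was −0.04, and without untreated replicate 3 it was −0.12. Ifit1 and Ifit3 share the same pair of response element cores, as printed above. Mice also carry Ifit3b, a close copy of Ifit3, so the value of Ifit3 is uncertain to the extent that this probe set binds both.

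**Figure D2:**
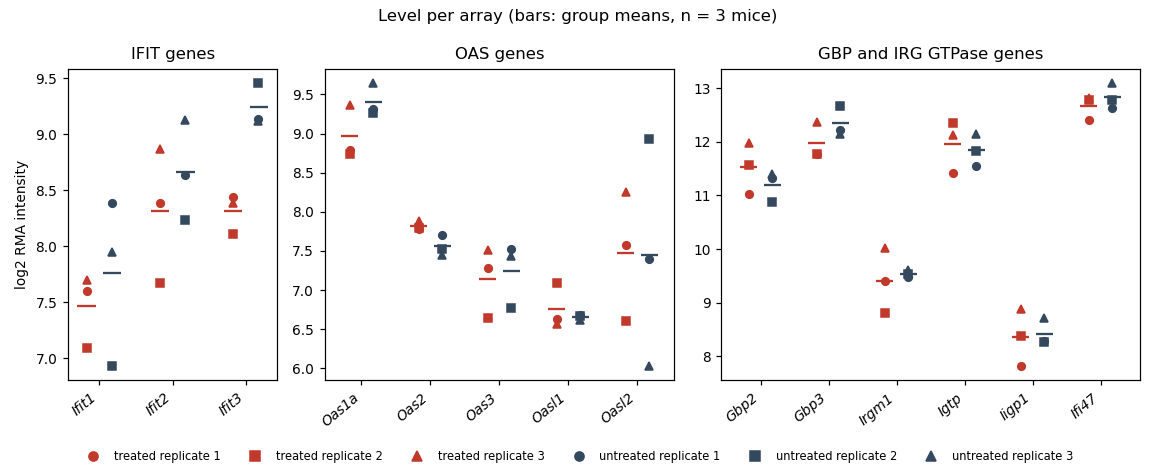
Level on each array (log2 RMA intensity, y axis) of the IFIT, OAS and GTPase genes (x axis), treated Tregs in red on the left of each pair and untreated Tregs in dark blue on the right, with symbols for replicates and bars for group means. Ifit3 is separated by group, whereas Oasl2 spans 6.03 to 8.93 within the untreated mice.

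OAS enzymes make short oligoadenylates on sensing double-stranded RNA, and these activate RNase L; Oasl1 and Oasl2 are related proteins. As a group they showed no common direction, with 3 positive and 2 negative differences and a median of +0.02. Oas1a measured 8.79, 8.74 and 9.36 in treated and 9.32, 9.26 and 9.65 in untreated mice, a difference of −0.45 (interval −0.97 to 0.08). The groups overlapped through treated replicate 3. Oas2 went the other way, with 7.78, 7.79 and 7.88 in treated against 7.71, 7.53 and 7.45 in untreated mice. It was the 1 member whose treated mice all exceeded the untreated mice, at a difference of +0.25 (interval −0.11 to 0.62). Oas3 measured 7.28, 6.64 and 7.51 in treated and 7.52, 6.77 and 7.44 in untreated mice (difference −0.10). Replicate 2 was the low array of Oas3 in each group. Oasl1 measured 6.63, 7.09 and 6.57 in treated and 6.68, 6.67 and 6.62 in untreated mice (difference +0.11). Oasl2 measured 7.57, 6.61 and 8.25 in treated and 7.40, 8.93 and 6.03 in untreated mice, so the untreated mice alone spanned more than the difference of +0.02 (interval −1.71 to 1.75). Without treated replicate 3 the median of the OAS genes was −0.29.

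Guanylate-binding proteins (GBP) and immunity-related GTPases (IRG) attack the vacuoles of intracellular microbes and respond mainly to interferon-gamma. Their differences scattered on both sides of 0, with 2 positive and 4 negative among 6 measured genes and a median of −0.10, and all 6 overlapped between groups. Gbp2 measured 11.02, 11.57 and 11.97 in treated and 11.32, 10.88 and 11.40 in untreated mice, a difference of +0.32 (interval −0.33 to 0.97). Its other probe set differed by +0.38, and the brighter one is of the type that can bind related transcripts. Gbp3, from the same gene cluster on chromosome 3, measured 11.78, 11.77 and 12.37 in treated and 12.22, 12.67 and 12.14 in untreated mice, a difference of −0.37 (interval −0.93 to 0.19). The treated array with the high Gbp3 value was replicate 3.

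Among the IRG genes, Igtp (Irgm3) measured 11.41, 12.35 and 12.13 in treated and 11.55, 11.82 and 12.15 in untreated mice (difference +0.13). Irgm1, which regulates the other IRG proteins, measured 9.41, 8.80 and 10.01 in treated and 9.48, 9.53 and 9.60 in untreated mice (difference −0.13). Irgm1 had a far wider spread among treated mice (SD 0.61) than among untreated mice (SD 0.06). Ifi47 measured 12.41, 12.78 and 12.82 in treated and 12.62, 12.78 and 13.10 in untreated mice (difference −0.16). Iigp1, an effector that coats parasite vacuoles, measured 7.82, 8.38 and 8.88 in treated and 8.28, 8.27 and 8.72 in untreated mice (difference −0.06). Its second probe set pointed the other way, at +0.48 (interval −0.17 to 1.13), so no direction can be given for Iigp1. Of 17 further probe sets annotated to a member alone, 5 had the opposite sign to the one used. Besides that of Iigp1 these belonged to Rigi, Ifi35, Xaf1 and Parp14, at +0.13, −0.09, +0.01 and +0.18, so no direction can be given for these genes either. The probe set shared by Gbp4 and Gbp8 averaged 7.18 in treated and 6.65 in untreated mice, a difference of +0.53 (interval −0.00 to 1.06).

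For each of the 4 transcription factors that carry the interferon signal the groups overlapped. Irf1 measured 11.40, 12.09 and 12.30 in treated and 11.19, 11.24 and 11.91 in untreated mice, a difference of +0.48 (interval −0.23 to 1.20). The groups overlapped, since treated replicate 1 lay below untreated replicate 3. With each array left out the difference of Irf1 ran between 0.296 without treated replicate 3 and 0.748 without treated replicate 1. Irf7, which amplifies type I interferon production, measured 8.16, 8.24 and 8.84 in treated and 8.25, 7.83 and 8.68 in untreated mice (difference +0.16). Irf9, a DNA-binding factor of the type I interferon response, measured 9.33, 9.18 and 10.14 in treated and 9.16, 9.33 and 10.21 in untreated mice (difference −0.01). Stat2 measured 7.34, 8.23 and 7.69 in treated and 7.49, 8.65 and 7.59 in untreated mice (difference −0.16). For Irf9 replicate 3 was high in each group, and for Stat2 replicate 2 was.

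Usp18 removes ISG15, a ubiquitin-like protein, from its targets and also blocks the type I interferon receptor. It measured 8.39, 7.46 and 8.69 in treated and 8.90, 9.15 and 9.01 in untreated mice, with no overlap. The difference was −0.84 (interval −1.58 to −0.10), with a limma p of 0.0315 and an adjusted p of 0.914, and treated replicate 2 held the low value. Without this array the difference was −0.48. The probe set shared by Isg15 and Gm9706 averaged 6.78 in treated and 7.24 in untreated mice, a difference of −0.46 (interval −1.09 to 0.16).

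The groups overlapped for all 3 sensors of foreign nucleic acid. Zbp1, a sensor of Z-form nucleic acids that can start necroptosis, measured 7.99, 8.41 and 7.90 in treated and 7.85, 7.47 and 7.95 in untreated mice (difference +0.34, interval −0.17 to 0.85). Ifih1, encoding MDA5, differed by +0.18 (interval −0.59 to 0.95). Rigi, encoding RIG-I, was the steadier of these RNA sensors, at 10.15 ± 0.24 in treated and 10.17 ± 0.14 in untreated mice, with a difference of −0.01 (interval −0.45 to 0.42).

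Of the 10 other effectors measured, 8 had negative differences, and the median of the 10 was −0.24. Among the negative ones, the signs of Rsad2, Xaf1 and Parp14 turned under an alternative below, as did those of the positive Ifi35 and Isg20. Rtp4, a chaperone of receptors, measured 10.46, 10.40 and 9.89 in treated and 10.74, 10.81 and 10.79 in untreated mice. The untreated values of Rtp4 lay close together (SD 0.03) and above all treated ones. The difference was −0.53 (interval −0.99 to −0.07), with a limma p of 0.0303 and an adjusted p of 0.914. Without treated replicate 3 the difference of Rtp4 was −0.35. Its other, dimmer probe set differed by −0.25 (interval −0.63 to 0.14), and there the groups overlapped. Bst2 (tetherin), which holds budding viruses at the cell surface, measured 8.73, 9.11 and 8.02 in treated and 9.22, 8.95 and 9.29 in untreated mice (difference −0.53, interval −1.21 to 0.14). Bst2 is also abundant in plasmacytoid dendritic cells, and the mean of 8 measured markers of those cells was 7.53, 7.2 and 7.27 in treated and 8.0, 7.97 and 6.97 in untreated mice. Of these markers 5 had positive differences, Siglech among them at +0.19, and 3 had negative ones, which were Spib at −2.08, Ccr9 at −0.82 and Tcf4 at −0.37. Their part in the Bst2 value was not tested. Without treated replicate 3 the difference of Bst2 was −0.23. Trim30a, a brake on inflammatory signalling, measured 10.30, 9.58 and 11.02 in treated and 10.66, 10.81 and 11.09 in untreated mice (difference −0.55, interval −1.38 to 0.28). Without treated replicate 2 this difference was −0.19 and without treated replicate 3 it was −0.91. Its other probe set differed by −0.88, and the one shared with Trim30d by −0.23.

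Mx1 and Mx2 encode dynamin-like antiviral GTPases, and many laboratory mouse strains carry a defective Mx1 gene. Mx1 measured 6.88, 5.94 and 6.71 in treated and 6.79, 7.03 and 7.19 in untreated mice (difference −0.49, interval −1.13 to 0.15), and Mx2 6.94, 7.11 and 7.13 in treated and 6.98, 7.16 and 7.33 in untreated mice (difference −0.09). The low value of Mx1 was again in treated replicate 2, and without that array its difference was −0.21. Ifi35 measured 11.52, 11.59 and 11.78 in treated and 11.54, 11.10 and 11.75 in untreated mice (difference +0.17). Isg20, an exonuclease, Xaf1, an antagonist of the apoptosis inhibitor XIAP, and Parp14, a mono-ADP-ribosyltransferase, differed by +0.01, −0.00 and −0.07. The groups overlapped for Mx1, Mx2 and each of these genes. Tap1, a subunit of the pump that loads peptides for MHC class I, measured 9.36, 9.89 and 10.26 in treated and 9.35, 8.87 and 9.98 in untreated mice (difference +0.44, interval −0.36 to 1.24). The groups overlapped, and with each array left out the difference of Tap1 ran between 0.174 without untreated replicate 2 and 0.728 without untreated replicate 3.

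Rsad2, encoding viperin, was singled out after its values were seen because it varied most between mice of a group, with a pooled SD of 1.19, followed by Oasl2 with 1.18. The median pooled SD was 0.41 over the 33 members and 0.27 over all genes. Rsad2 measured 11.44, 9.39 and 10.49 in treated and 11.03, 12.05 and 9.40 in untreated mice, a difference of −0.39 (interval −2.13 to 1.36). Its low arrays were treated replicate 2 and untreated replicate 3, which were also the low arrays of Oasl2 and of the myeloid markers in their groups. The 2 further probe sets of Rsad2 differed by −0.48 and −0.89, and neither repeated both low arrays. The first was lowest in treated replicate 2 but in untreated replicate 1 (5.49, against 5.73 in replicate 3). The second was lowest in untreated replicate 3 but in treated replicate 3 (7.04, against 7.22 in replicate 2). Ifit3 was lowest in treated replicate 2 and untreated replicate 3, at 8.11 beside 8.44 and 8.39 in treated and at 9.12 beside 9.14 and 9.46 in untreated mice.

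**Figure D3:**
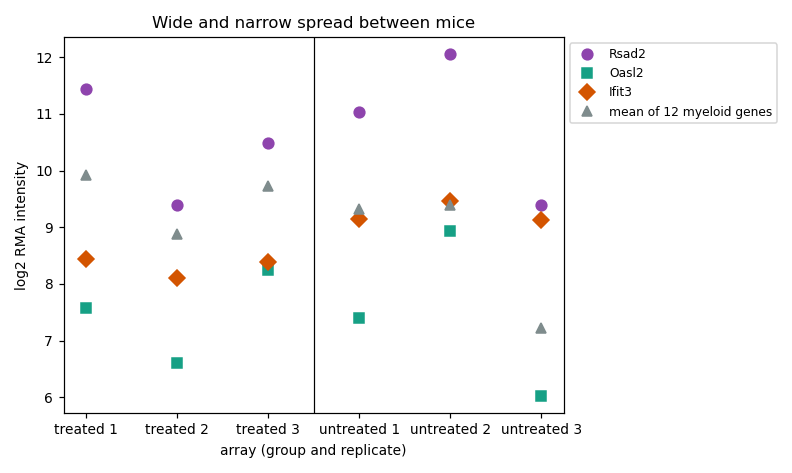
Level (log2 RMA intensity, y axis) of Rsad2, Oasl2 and Ifit3 and the mean of 12 myeloid markers on each array (x axis, treated mice left of the line). Rsad2, Oasl2 and the myeloid mean are low in treated replicate 2 and untreated replicate 3, where Ifit3 measured 8.11 and 9.12.

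A further pattern ran across the groups by replicate number. The treated array with the highest value was replicate 3 for 21 of the 33 genes (63.6%), against 33.8% of all genes. Among untreated arrays it was replicate 3 for 20 of 33 (60.6%), against 39.8% of all genes. Both held for 15 genes (45.5%), against 16.2% of all genes, and these were Ifit2, Oas1a, Gbp2, Irgm1, Iigp1, Ifi47, Irf1, Irf7, Irf9, Rigi, Mx2, Ifi35, Xaf1, Trim30a and Tap1. Both arrays numbered 3 have scanner file numbers that lie apart from the other 4, so their processing and the mice cannot be told apart. Within the 4 lower-numbered arrays 22 of the 33 genes were lower in treated mice, with a median difference of −0.17 (all genes +0.06). Between the 2 higher-numbered arrays 17 were lower, with a median of −0.01. Ifit3 differed by −1.03 within the lower-numbered arrays and by −0.74 between the higher-numbered ones. Usp18 differed by −1.10 and −0.32, Rtp4 by −0.34 and −0.90, Irf1 by +0.53 and +0.39, and Oasl2 by −1.08 and +2.22, in the same order.

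**Figure D4:**
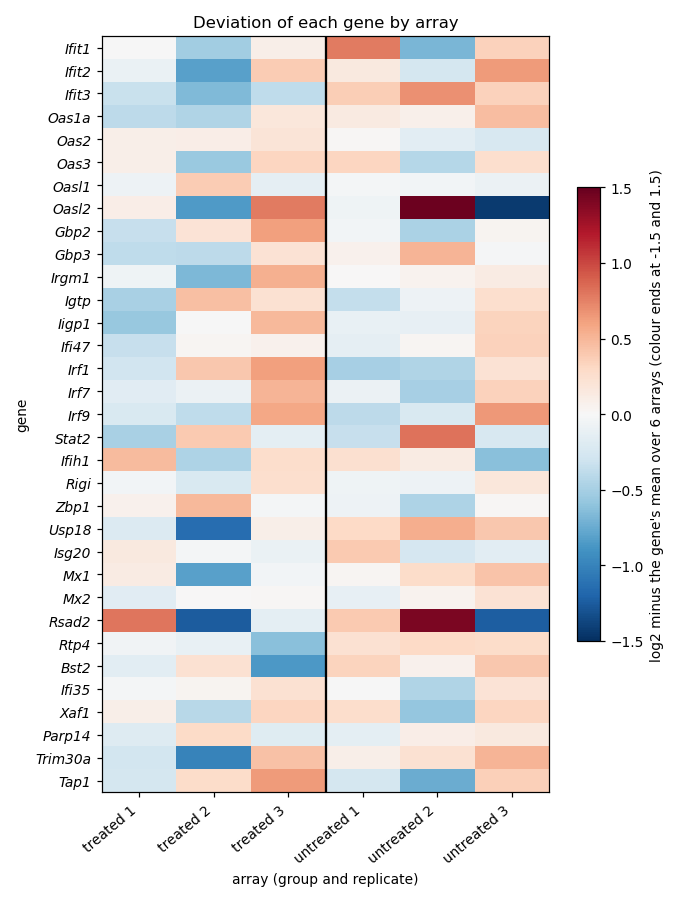
Each cell is the log2 level of a gene (rows) on an array (columns, treated mice left of the line) minus its mean over the 6 arrays, red above and blue below, with colours ending at −1.5 and 1.5. Replicate 3 is the highest array of both groups for 15 of the 33 genes, and Usp18, Mx1 and Trim30a are low in treated replicate 2.

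The printed elements were set beside the differences. Of 14 measured members with a response element core in their window, 11 had negative differences (median −0.22). Of 11 measured members with a window and no core, 4 had negative differences (median +0.02). Among the negative members with a core, the sign of Ifit1, Oas3, Irgm1, Stat2, Rigi and Rsad2 turned under an alternative below. It also turned for Irf9 and Xaf1, negative without a core. Among the positive members it turned for Igtp and Ifih1, with a core, and for Oasl1, Oasl2, Irf7, Isg20 and Ifi35, without one. Usp18 and Rtp4 had no window and stand in neither set. The list was chosen with earlier results known, and the part of the core in the differences was not tested. Among all genes with a window the 524 with a core had 43.9% negative differences and a median of +0.04, and the 13928 without had 41.6% and +0.05. For the gamma-activated site, 3 of 7 members with a match and 12 of 18 without were negative.

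**Figure D5:**
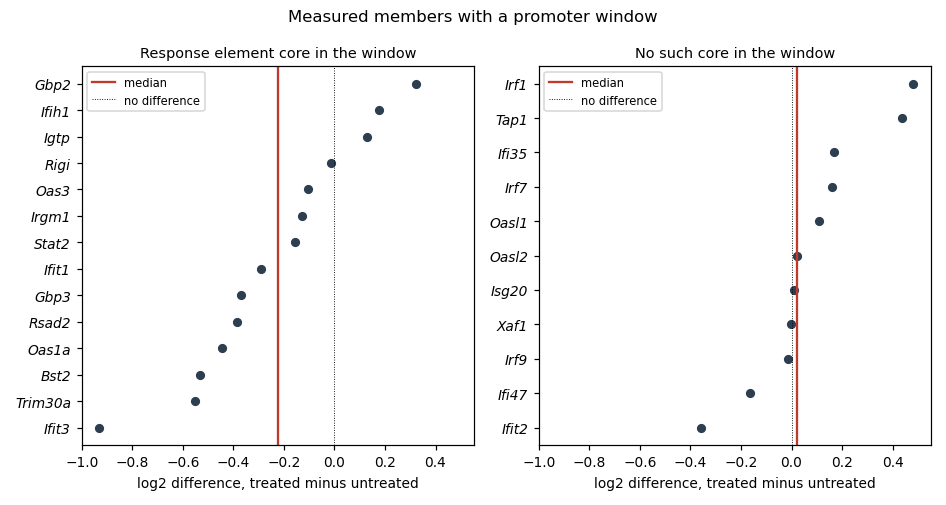
Difference (log2, treated minus untreated, x axis) of the measured members with a promoter window (y axis), with a response element core on the left and without on the right. Red lines are medians, at −0.22 and +0.02, and dotted lines mark no difference. Measured members without a window, Usp18 and Rtp4 among them, are not shown.

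Upstream, no ligand, receptor or signalling gene passed the test over all genes, and 17 of 43 measured pathway genes (39.5%) had negative differences, close to the 41.5% of all genes. Of 10 interferon genes measured, the type I ligand gene Ifnz differed by +0.75 (interval 0.24 to 1.26) without overlap, and Ifna9, Ifna4 and Ifna11 by +0.23, +0.16 and −0.13. Ifng, named outside the rule, had an SD of 1.29 in treated and 0.69 in untreated mice (n = 3 each), both above its difference of +0.42. The receptor genes Il10rb, Ifnlr1, Ifngr2 and Ifnar1 differed by −0.32, +0.19, +0.26 and +0.26. Tyk2, a kinase of the type I receptor, differed by +0.45 (interval 0.02 to 0.89) without overlap, and Jak1, Stat3 and Jak2 by +0.22, +0.13 and +0.02. Among the inhibitors Socs3, a feedback brake on cytokine receptors, differed by +0.72 (interval 0.13 to 1.31) without overlap, and Ptpn6, Ptpn11 and Pias1 by +0.47, −0.25 and −0.18. Irf4 differed by −0.42 (interval −0.93 to 0.10) without overlap, and Irf2, Irf5 and Irf3 by +0.65, +0.25 and +0.38. The adaptors Ticam1, Sting1 and Myd88 and the helicase gene Dhx58 differed by +0.41, +0.42, +0.25 and −0.16. Of the 43 pathway genes, treated values lay above all untreated ones in 3 (6.98%, against 5.61% of all genes). They lay below in 1 (2.33%, against 5.24%).

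Further interferon-induced genes outside the 36 were also short of the test, with 0 of 58 measured called in either direction. At an unadjusted p under 0.05, 3 of the 58 (5.17%) were lower, against 3.17% of all genes, and 1 (1.72%) was higher, against 1.82%. The 3 lower ones were Epsti1, Ddx60 and Gbp2b. Epsti1 measured 10.41, 10.33 and 10.65 in treated and 10.92, 11.74 and 11.22 in untreated mice (difference −0.83, interval −1.39 to −0.27, adjusted p = 0.914 by limma). Ddx60, an RNA helicase that aids RIG-I, measured 6.22, 5.00 and 6.29 in treated and 6.96, 7.86 and 6.58 in untreated mice (difference −1.30, interval −2.35 to −0.25). Trim34a and Pnpt1 differed by −0.35 and −0.53, Gbp2b by −0.45, and Gbp6, Gbp7 and Irgm2 by +0.42, −0.39 and +0.08. The 1 higher gene was Nlrc5, the transactivator of MHC class I genes. It measured 9.54, 10.28 and 10.96 in treated and 9.08, 8.80 and 9.43 in untreated mice, a difference of +1.16 (interval 0.30 to 2.02). Genes it acts on, also named outside the rule, were B2m at −0.03, H2-K1 at −0.10 and Psmb9 at +0.19, and Psmb10, Tapbp and Psme1 of the same list differed by +0.37, +0.33 and +0.60. Among chemokine genes Ccl5 differed by +0.65, Cxcl10 by +0.23, Cxcl11 by −0.08 and Cxcl9 by −0.16.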

How the data were processed

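Sorted Treg RNA of 6 mice was amplified in 2 rounds, biotin-labelled and hybridised to Affymetrix M430v2 arrays, per the labels' protocols. The deposited values are RMA intensity values, made by the authors in GenePattern per the series' design text. The version is not stated in those sources. Their range of 5.47 to 29584.9 shows a linear scale, so log2 was taken and nothing was normalized further. Of 45101 probe sets, 64 controls were left out. Symbols came from the platform annotation, with 34741 of 34945 probe sets of 1 symbol matched by gene identifier, 932 holding several symbols and 9160 none. Groups followed the sample titles, and each array held 1 mouse. The p-values measure the spread between arrays, in which mice, sorting and processing cannot be told apart. The number of mice limits the precision.

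Treated and untreated mice were set against each other in R 4.3.3 by limma 3.58.1 (eBayes after lmFit on 45037 probe sets, Benjamini-Hochberg over 18193 genes, 95% intervals from this fit). Simulated data for this comparison over 18193 genes had independent normal noise and 200 genes altered in each of 10 runs, in equal parts 2-, 4-, 8- and 16-fold. They led to calls for 33.6% of those altered 2-fold and 92% of those altered 8-fold, while unaltered genes made 7.5 calls a run. The Benjamini-Hochberg cut-off loosens as more genes are called. These shares therefore do not carry over to the real data, where 0 genes were called. Motifs were searched on both strands of the RefSeq promoter windows. All members are named, with values on every array for the IFIT, OAS and GTPase genes, the factors, Usp18 and the 8 other members with the smallest p, and up to 4 genes with the smallest p from each further list. Members and lists were chosen with earlier results of these data known. By limma 0 genes were called in either direction, with 331 higher and 576 lower at an unadjusted p under 0.05. Figures used matplotlib 3.10.9 in Python 3.11.15.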

Additional observations from a re-analysis of the deposited data

How the results depend on the processing

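The values were recomputed under 17 alternatives, and 0 of the 33 members were called under any of them or at an adjusted p of 0.1; the smallest adjusted p of a member was 0.363, for Ifit3 with array weights, whose adjusted p ran up to 1.0 elsewhere. Ifit3 stayed between −0.99 and −0.82 with each array left out. Same-numbered arrays of the 2 groups had neighbouring scanner file numbers, and their deviations correlated at 0.51, 0.01 and 0.10. Whether the numbers pair the arrays was thus not settled, and the fit with the replicate block was kept as an alternative. It gave 0 calls and 4 members lower at an unadjusted p under 0.05, adding Oas1a (−0.45). Over all genes 589 were higher and 751 lower at that cut-off in the block fit, against 331 and 576 in the main fit. With quantile normalization or limma's trend and robust options 2 members were lower at that cut-off, and Rtp4 was not among them (limma p of 0.124 and 0.0677). With array weights 5 were. Lower over all genes were 515, 419 and 680, in the same order. Over all genes the calls were 18 lower within the lower-numbered arrays, 1 lower with median centring, 1 higher and 4 lower with array weights and 2 lower at an adjusted p of 0.1. With each array left out they were 0 to 1 higher and 0 to 31 lower, the upper counts without untreated replicate 3. The median of the members ran from −0.23 to −0.03 over these left-out arrays, that of IFIT from −0.70 to −0.10, OAS from −0.29 to 0.15 and the GTPases from −0.28 to 0.09. With the mean of the probe sets the median of the members was −0.01, and within the lower-numbered arrays it was −0.17.

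The sign held under every alternative for 16 members and turned under at least 1 for 17, whose main differences were within 0.39 of 0. With arrays left out, Ifit1 ran from −0.70 to 0.028, Oas3 from −0.34 to 0.15, Oasl1 from −0.055 to 0.21, Oasl2 from −0.69 to 0.76, Irgm1 from −0.43 to 0.17, Igtp from −0.065 to 0.40, Iigp1 from −0.32 to 0.21, Irf7 from −0.053 to 0.38, Irf9 from −0.31 to 0.31, Stat2 from −0.39 to 0.21, Ifih1 from −0.092 to 0.46, Rigi from −0.14 to 0.10, Isg20 from −0.11 to 0.21, Rsad2 from −1.10 to 0.23, Ifi35 from −0.008 to 0.31, Xaf1 from −0.30 to 0.20 and Parp14 from −0.23 to 0.011. With array weights Oasl1 was at −0.011, Igtp −0.10, Irf9 0.083, Rigi 0.029, Isg20 −0.062, Rsad2 0.18 and Xaf1 0.011. Within the lower-numbered arrays Oasl2 was at −1.08, Irf9 0.014, Ifih1 −0.18, Isg20 −0.015 and Parp14 0.063. With age as a covariate Irgm1 was at 0.035, Iigp1 0.10, Irf9 0.24, Rigi 0.07, Isg20 −0.12 and Xaf1 0.011. Quantile normalization gave Oasl2 −0.039, Irf9 0.073, Rigi 0.084, Xaf1 0.004 and Parp14 0.001, and median centring Oasl2 −0.004 and Isg20 −0.016. The mean of the probe sets gave Iigp1 0.21, Rigi 0.007, Xaf1 0.002 and Parp14 0.058, and plain probe sets gave Iigp1 0.48. The cause was not tested.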

Other observations

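The IFITM genes, whose products block the entry of viruses and which many cell types express, also spread widely between mice of a group. Ifitm3 measured 11.57, 10.37 and 12.26 in treated and 11.11, 10.58 and 8.15 in untreated mice, a difference of +1.45 (interval −0.46 to 3.36, adjusted p = 0.914 by limma). Ifitm1 measured 10.17, 9.45 and 11.47 in treated and 10.04, 9.54 and 7.47 in untreated mice (difference +1.35), and Ifitm2 8.81, 8.22 and 9.71 in treated and 8.65, 8.01 and 5.98 in untreated mice (difference +1.37). All 3 were lowest in untreated replicate 3, the array with the lowest myeloid marker mean of 7.22. In treated mice all 3 were lowest in replicate 2, whose myeloid mean of 8.88 was the lowest of its group. The IFITM genes were picked here with their values in view, and the part of other cells in them was not tested.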
